A study of Mus musculus with 8 samples.

Results

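The Hedgehog pathway genes studied here are the ligands Ihh and Dhh, the receptors Ptch1 and Hhip, the transducer Smo, the inhibitor Sufu and the transcription factors Gli1, Gli2 and Gli3. They were chosen by name for their place in the pathway and matched by symbol, and all 9 were found among the 52636 genes of each count table. The 8 RNA-seq samples are malignant mesotheliomas (MMs), which arise from the cell layer around the lungs and other organs, and they come from mice with conditional deletions. The 6 triple knockout samples are labelled as lacking Nf2, Cdkn2a and Bap1, and the 2 double knockout samples as lacking Nf2 and Cdkn2a, so that losses of Nf2 and Cdkn2a are shared by all 8. Merlin, the product of Nf2, regulates the Hippo pathway, the products of Cdkn2a restrain the cell cycle, and Bap1 makes an enzyme that takes ubiquitin off histone H2A. Setting triple against double knockout asks what differs when Bap1 is lost in addition. The sources used here give neither the strain and age of the mice nor what drives the Cre recombinase. The labels describe cells kept in culture medium, without the number of animals or cultures behind the samples, and the p-values therefore cover only the variation among these 8 samples, which may be technical.

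Hedgehog ligands bind Patched receptors on the receiving cell and thereby release Smo from inhibition. Active Smo, working at the primary cilium, frees Gli proteins from Sufu and from processing into repressors. Gli2 is then the main activator, Gli3 acts largely as a repressor, and Gli1, Ptch1 and Hhip are direct targets whose transcripts are widely used as a readout of the pathway. In adult tissue the ligands come mostly from epithelium and nerve, and the responding cells are mostly fibroblasts and other mesenchyme.

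The promoters of 4 members are shown because they belong to the factor that passed the test (Gli2), to a pair of its reported targets (Ptch1 and Hhip) and to the only ligand with more than a few reads (Dhh). Each runs from 250 bases before to 50 bases after the RefSeq start site on GRCm38.p6, is written 5′ to 3′ on the gene's strand, and has its CpG dinucleotides in capitals.
Gli2, chr1:119053570-119053869, minus strand: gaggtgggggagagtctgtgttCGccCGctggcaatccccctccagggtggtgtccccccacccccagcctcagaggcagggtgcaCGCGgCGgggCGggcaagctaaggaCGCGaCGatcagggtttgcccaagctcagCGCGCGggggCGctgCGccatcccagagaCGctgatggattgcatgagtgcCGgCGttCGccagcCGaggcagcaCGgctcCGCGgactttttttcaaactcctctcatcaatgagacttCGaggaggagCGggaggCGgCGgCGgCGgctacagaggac
Ptch1, chr13:63565686-63565985, minus strand: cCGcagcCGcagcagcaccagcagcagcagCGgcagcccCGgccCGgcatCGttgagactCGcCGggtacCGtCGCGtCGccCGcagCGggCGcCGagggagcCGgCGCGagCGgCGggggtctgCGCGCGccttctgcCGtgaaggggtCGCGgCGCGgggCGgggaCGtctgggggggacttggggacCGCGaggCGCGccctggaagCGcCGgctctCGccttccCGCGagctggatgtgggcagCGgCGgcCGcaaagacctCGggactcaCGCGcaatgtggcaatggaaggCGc
Hhip, chr8:80057959-80058258, minus strand: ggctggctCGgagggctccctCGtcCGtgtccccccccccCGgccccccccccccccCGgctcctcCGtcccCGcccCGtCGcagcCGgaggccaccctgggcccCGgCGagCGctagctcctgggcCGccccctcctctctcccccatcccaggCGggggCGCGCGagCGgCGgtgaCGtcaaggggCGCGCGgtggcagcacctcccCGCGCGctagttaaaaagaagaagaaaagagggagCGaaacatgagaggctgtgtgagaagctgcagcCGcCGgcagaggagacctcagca
Dhh, chr15:98898491-98898790, minus strand: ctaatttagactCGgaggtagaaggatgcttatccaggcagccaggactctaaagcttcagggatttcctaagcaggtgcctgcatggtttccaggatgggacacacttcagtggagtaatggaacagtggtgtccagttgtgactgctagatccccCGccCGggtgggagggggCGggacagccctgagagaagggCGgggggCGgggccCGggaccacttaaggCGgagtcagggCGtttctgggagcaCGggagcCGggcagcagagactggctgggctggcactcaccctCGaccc
These promoters differ in CpG content. Ptch1 has 47 CpG dinucleotides, Hhip 30, Gli2 28 and Dhh 12, where the median over 32851 RefSeq promoters of that length is 7. Of all promoters, 98.6% hold fewer than Ptch1, 85.8% fewer than Gli2 and 60.4% fewer than Dhh. RefSeq promoters were found for 8 of the 9 members, all but Gli1. None of the 8 holds the Gli consensus GACCACCCA on either strand, which 0.253% of all promoters hold. None holds the core CCACCCA, which lies within that consensus and occurs in 9.3% of all promoters. The missing letters say nothing about Gli binding elsewhere.

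Depth was 28326756 to 30232440 counts in the triple samples and 32082535 and 26847202 counts in double samples 1 and 2. Levels are counts per 1000000 counts of the library (CPM), scaled with TMM factors, and a gene was called when its Benjamini-Hochberg adjusted p from edgeR's quasi-likelihood test was under 0.05. Double sample 1 stood apart, with a TMM factor of 0.771 against 0.994 to 1.10 in the other 7 samples and 4.04% of counts from mitochondrial genes against 1.17% to 2.33%. The labels' tissue was checked against mesothelial markers. Msln was counted in every sample, at 12.6 to 194 CPM in the triple samples and at 251 and 342 CPM in the double samples. Pdpn (79.0 to 204 CPM in the triple samples, 58.5 and 83.7 CPM in the double samples) was too. So were Krt8 (1.23 to 179 CPM against 16.5 and 798 CPM) and Krt18 (6.83 to 71.1 CPM against 10.6 and 203 CPM). Upk1b, Lrrn4, Krt7, Krt19 and Gpm6a were highest in triple sample 3. Upk3b was at 173 CPM in triple sample 3 and at most 0.364 CPM in the other 7 samples, Wt1 was at 33.2 CPM there and at most 1.76 CPM elsewhere, and Calb2 had a read in triple sample 2 only. The leukocyte gene Ptprc stood at 74.2 to 151 CPM in the triple samples and at 25.0 and 114 CPM in the double samples, although the labels describe cultured cells. Transcripts of the deleted genes were counted in all samples, Bap1 at 43.1 to 72.0 CPM in the triple samples against 105 and 71.1 CPM in the double samples, and none of Bap1, Nf2 and Cdkn2a was called (adjusted p = 0.122, 0.103 and 0.306). The sources used here do not say which exons were deleted, so these whole-gene counts do not check the labels.

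Of the 9 Hedgehog members, Gli2 rose in the triple knockout samples, no member fell, 7 were tested without a call, and Ihh had too few reads to be tested. Over all 17709 genes tested, 2.94% were called higher and 8.35% were called in either direction. In 5 members, Gli1, Gli2, Gli3, Smo and Dhh, every triple sample lay above both double samples, and 12.8% of all genes tested showed that pattern. At an unadjusted p under 0.05 the same edgeR test put 5 members higher and 0 lower, where 11.8% of all genes tested were higher, 16.1% lower and 27.9% either. Double sample 1 and triple samples 4, 5 and 6 share a description code whose meaning the labels do not give. A fit with that code as a term called 1 member higher, Gli2 (2.51 ± 0.42, SE; adjusted p = 0.0223), where 2.08% of all genes were called higher and 5.43% in either direction. DESeq2 called 5 members higher, as it did 8.52% of all genes, and limma-voom called 0 members, and 2.29% of all genes higher. Leaving out double sample 1, double sample 2 or triple sample 5 left 0, 2 and 2 members called higher, where 0.553%, 13.7% and 1.68% of all genes were. Fits without 1 of the triple samples called 3.61% to 5.3% of all genes in either direction, against 8.35% with all 8 samples. The median log2 fold change of the 8 tested members was 1.1, and that of all genes tested was 0.02. All but Hhip of the tested members would have passed the filter on low counts, 10 counts at the median library size in 2 samples, through either group alone. In bulk samples such as these, fewer cells of a type and less RNA per cell cannot be told apart.

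**Figure D1:**
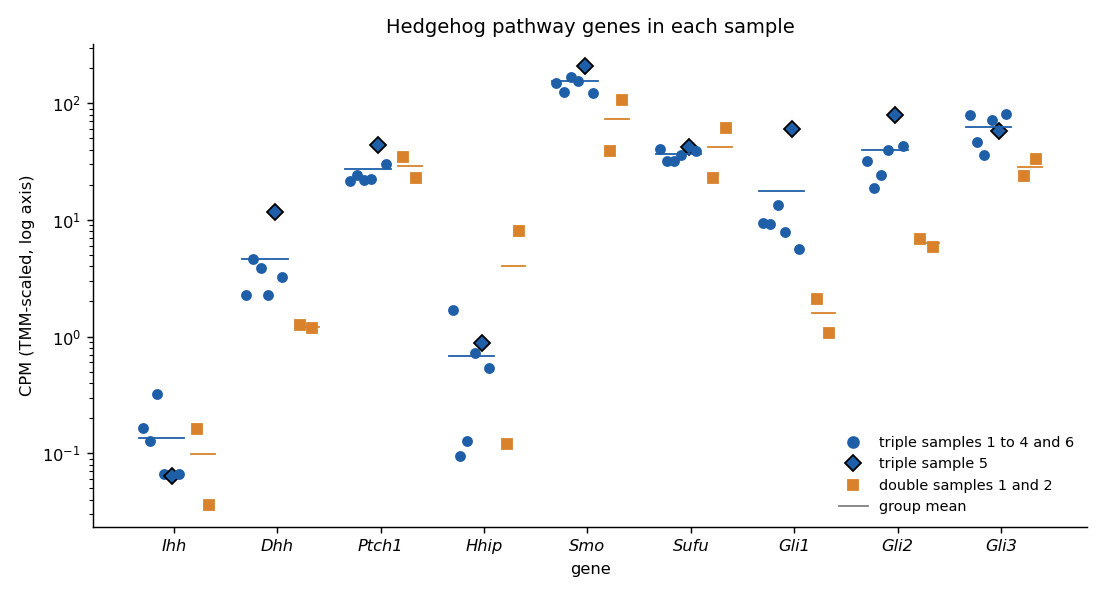
CPM (TMM-scaled, log axis) of the 9 Hedgehog members in each sample, with 6 triple samples (blue; sample 5 as a diamond) left of 2 double samples (orange squares) for each gene, and lines at the group means. Gli2 lies at 18.8 to 79.2 CPM in the triple samples and at 6.84 and 5.81 CPM in the double samples, while the groups overlap for Ihh, Ptch1, Hhip and Sufu.

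Ligand transcripts were scarce. Ihh (Indian hedgehog, known from cartilage and gut) had 2 to 10 counts in each triple sample and 4 and 1 counts in double samples 1 and 2. Shh (Sonic hedgehog, not a member of the set) had 1 count in triple samples 2, 3, 5 and 6 and 0 in the other samples, where a count of 0 allows up to 3 counts. Dhh (Desert hedgehog, made by Schwann cells among others; chromosome 15, 98893031 to 98898540) was the only ligand gene with appreciable reads. Dhh stood at 2.26, 4.62, 3.88, 2.25, 11.7 and 3.23 CPM in triple samples 1 to 6 and at 1.25 and 1.19 CPM in double samples 1 and 2. The groups did not overlap, and triple sample 5 was 2.54 times the next highest triple sample. The log2 fold change of Dhh was 1.93 ± 0.74 (SE), with an adjusted p of 0.134.

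Genes that acylate, release or carry ligands gave no call. Of 6 tested from a list of 7, edgeR, DESeq2 and limma-voom called 0, and 1 was lower in edgeR at an unadjusted p under 0.05. Of all genes tested, edgeR called 8.35%, and 16.1% were lower at an unadjusted p under 0.05. The median log2 fold change of the 6 was -0.29. Disp2 (adjusted p = 0.133), a relative of the ligand-release protein Disp1, averaged 1.84 ± 0.89 CPM in the triple samples (SD, n = 6) and had 1.21 and 12.8 CPM in double samples 1 and 2. Scube2 (adjusted p = 0.276), which carries ligand away from the cell, averaged 1.66 ± 0.82 CPM in the triple samples (SD, n = 6) and had 5.06 and 1.77 CPM in the double samples. In both genes 1 double sample lay above the triple range and the other double sample lay inside it.

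Among receptors, Ptch1 did not separate the groups and the co-receptor Cdon fell. Ptch1 (the ligand receptor that holds Smo inactive; chromosome 13, 63508328 to 63573598) stood at 21.5, 24.2, 22.2, 22.5, 44.3 and 30.3 CPM in triple samples 1 to 6 and at 34.9 and 22.7 CPM in double samples 1 and 2. Triple sample 5 was highest, and both double samples lay within the triple range. Ptch1 had a log2 fold change of -0.07 ± 0.32 (SE), with an adjusted p of 0.912, which turned to 0.27 without double sample 1 and to 0.02 with upper-quartile scaling. Without any scaling factor, its difference in mean log2 CPM was 0.14, where the median of all genes tested was 0.24.

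Hhip (a decoy receptor that binds ligand; chromosome 8, 79965851 to 80058006) was low in most samples. It had 51, 3, 4, 22, 28 and 16 counts in triple samples 1 to 6 and 3 and 221 counts in double samples 1 and 2. Double sample 2 alone was high, at 7.97 CPM, and double sample 1, at 0.121 CPM, lay within the triple range of 0.0949 to 1.69 CPM. Hhip had a log2 fold change of -2.57 ± 1.17 (SE), with an adjusted p of 0.192, which turned to 2.45 ± 1.71 (adjusted p = 0.309) without double sample 2.

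Of 4 co-receptors, all tested, 0 rose (also 0 at an unadjusted edgeR p under 0.05, with limma-voom and with DESeq2), 1 fell and 3 gave no call. The median log2 fold change was -0.19, where 5.41% of all genes tested were called lower. Cdon, an adhesion protein that presents ligand to Ptch1 and is also active in myoblasts, stood at 19.0, 31.3 and 84.3 CPM (lowest, median and highest) in the triple samples and at 151 and 243 CPM in the double samples. The groups did not overlap, and the log2 fold change was -2.32 ± 0.47 (SE), with an adjusted p of 0.025. Cdon lost its call without double sample 1 (adjusted p = 0.0803) and without triple sample 1 or 5 (adjusted p = 0.0588 and 0.0501). Its partner Boc averaged 33.8 ± 16.3 CPM in the triple samples (SD, n = 6) and had 37.3 and 23.6 CPM in the double samples. Gas1, a membrane-anchored co-receptor, ranged over 53.6 to 133 CPM in triple samples, against 135 and 106 CPM in double samples 1 and 2; Boc and Gas1 were chosen after their values were seen.

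Smo (the transducer, on chromosome 6, 29735503 to 29761365) was the most abundant member per length of exon in either group. Smo stood at 149, 124, 168, 155, 209 and 122 CPM in triple samples 1 to 6 and at 38.8 and 107 CPM in double samples 1 and 2. All triple samples lay above both double samples, with an SD of 32.1 CPM among the triple samples and of 48.5 CPM between the double samples. Smo had a log2 fold change of 1.08 ± 0.38 (SE), with an adjusted p of 0.113. It was 0.51 without double sample 1 and 2.01 without double sample 2, in fits that hold 1 double sample each.

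Sufu (the inhibitor that holds Gli proteins in the cytoplasm; chromosome 19, 46396896 to 46488804) varied little among the triple samples. It averaged 37.0 ± 4.36 CPM there (SD, n = 6) and had 22.7 and 61.5 CPM in double samples 1 and 2, on either side of the triple range of 31.7 to 42.1 CPM. Sufu had a log2 fold change of -0.19 ± 0.32 (SE), with an adjusted p of 0.734. It turned to 0.72 without double sample 2 and was -0.74 without double sample 1, in fits that hold 1 double sample each.

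Of 18 genes that act between Smo and the Gli proteins, all tested, 3 rose, 1 fell and 14 gave no call. Their median log2 fold change was 0.19. Of all genes tested, 2.94% were called higher and 5.41% lower. Gpr161, a ciliary receptor that keeps the pathway off by raising cyclic AMP, averaged 23.2 ± 2.14 CPM in the triple samples (SD, n = 6) and 10.8 ± 3.66 CPM in the double samples (SD, n = 2), and rose by 1.11 ± 0.25 (SE) on the log2 scale (adjusted p = 0.0318). Grk3, a relative of the Smo kinase Grk2, rose by 1.60 ± 0.35 on the log2 scale (adjusted p = 0.0293). Its level was 38.5 to 70.7 CPM in the triple samples and 12.1 and 23.7 CPM in the double samples. Catalytic subunits of protein kinase A, which phosphorylates Gli proteins for processing, moved in opposite directions. Prkacb rose by 0.96 ± 0.24 on the log2 scale (adjusted p = 0.0441), and averaged 190.0 ± 36.9 CPM in the triple samples (SD, n = 6) and 97.9 ± 5.65 CPM in the double samples (SD, n = 2). Prkaca fell by 1.34 ± 0.26 on the log2 scale (adjusted p = 0.0216), with 79.5 to 99.5 CPM in the triple samples and 328 and 142 CPM in double samples 1 and 2. All 4 of these genes lost their call without double sample 1, with adjusted p of 0.126 for Prkaca to 0.224 for Prkacb, and the log2 fold change of Prkaca was then -0.61. Gpr161 also lost its call without any 1 of the triple samples (adjusted p = 0.0504 to 0.0658), Prkacb without triple sample 1, 3, 4, 5 or 6 (0.0558 to 0.0841), Grk3 without triple sample 1, 4 or 6 (0.0516 to 0.0589) and Prkaca without triple sample 1 (0.052). Prkacb lost its call with the description code as a term (adjusted p = 0.0632) and with no filter on low counts (0.0538). Over all genes, the share called was also lower without 1 of the triple samples, at 3.61% to 5.3% against 8.35%.

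Genes of the primary cilium, in which Smo and the Gli proteins act, gave no call. Of 20 tested, edgeR and limma-voom called 0 and DESeq2 called 1 higher and 1 lower. Of all genes tested, edgeR called 8.35%. At an unadjusted edgeR p under 0.05 there were 3 higher and 2 lower (11.8% and 16.1% of all genes tested). The median log2 fold change of the 20 was 0.07. Those of smallest p were Ift140, at 24.4 to 33.6 CPM in the triple samples and 10.7 and 19.2 CPM in the double samples (adjusted p = 0.0576), and the motor subunit Kif3a, at 26.4 to 34.6 CPM in the triple samples and 50.7 and 36.9 CPM in the double samples (adjusted p = 0.0996).

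**Figure D2:**
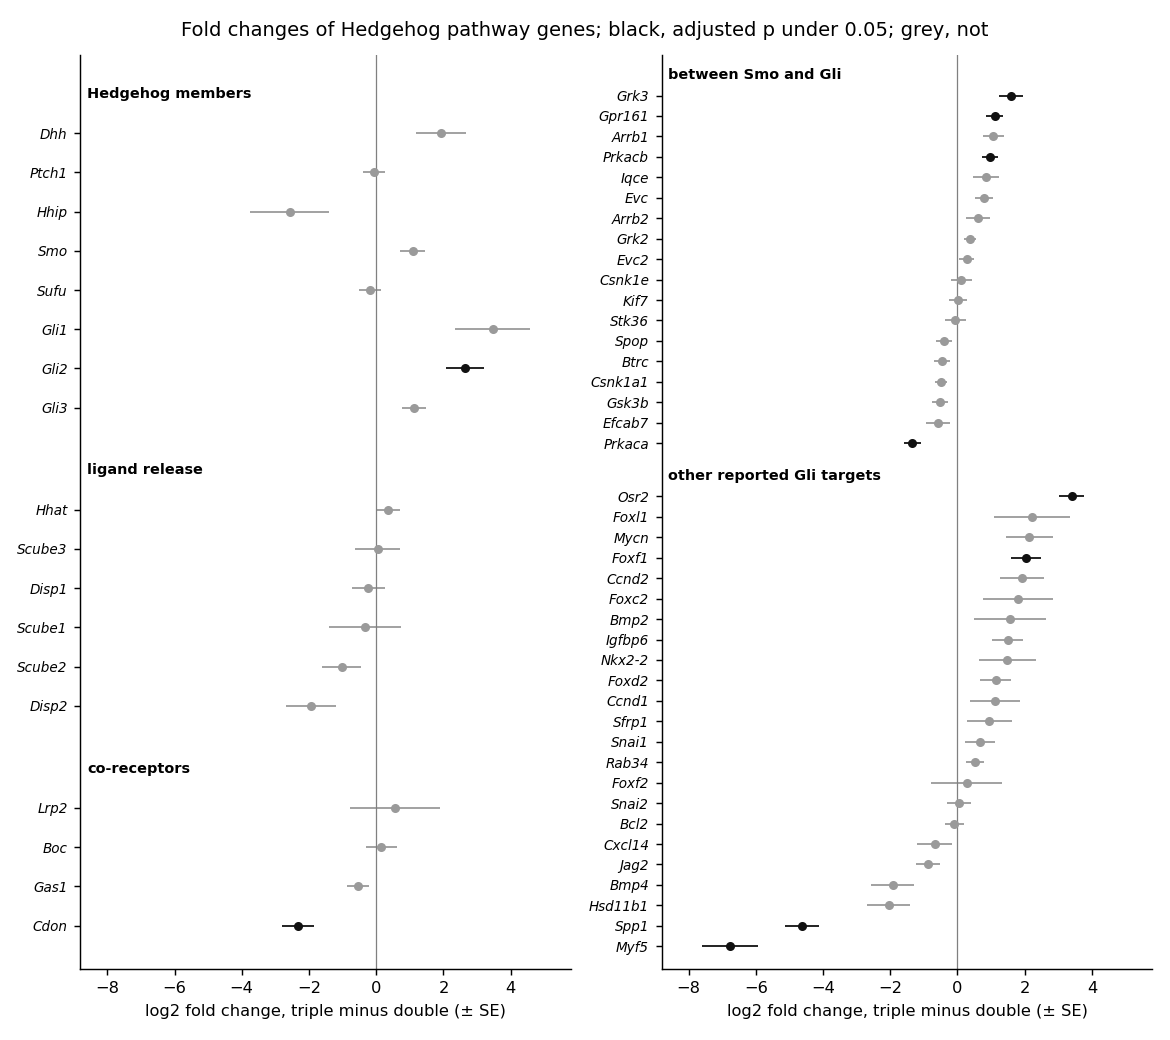
Log2 fold changes (triple minus double, points with SE bars) of the tested Hedgehog members, ligand release genes and co-receptors (left) and of genes acting between Smo and Gli and other reported Gli targets (right). Black points passed the adjusted test; Gli2 at 2.64 and Osr2 at 3.40 lie to the right, and Cdon at -2.32, Spp1 at -4.63 and Myf5 at -6.76 to the left.

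Gli2 (chromosome 1, 118834132 to 119053619) was the called member. It stood at 32.1, 18.8, 24.3, 39.7, 79.2 and 43.0 CPM in triple samples 1 to 6 and at 6.84 and 5.81 CPM in double samples 1 and 2. Every triple sample was above both double samples, and triple sample 5 was the highest. The mean was 39.5 ± 21.5 CPM in the triple samples (SD, n = 6) and 6.32 ± 0.73 CPM in the double samples (SD, n = 2), a log2 fold change of 2.64 ± 0.57 (SE) with an adjusted p of 0.0298. An exact permutation test of the difference in mean log2 CPM, 2-sided over the 28 splits of 8 samples into 6 and 2, gave p = 0.0357, the smallest it can give. The adjusted p was 0.164 without double sample 1, 0.0523 without double sample 2 and 0.0544 to 0.057 without triple sample 1, 4 or 6, at log2 fold changes of 2.55 to 2.75. Leaving out triple sample 5 kept the call, at 2.32 (adjusted p = 0.0254).

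Gli1 (the target and amplifier; chromosome 10, 127329882 to 127341974) had a larger fold change than Gli2 and a larger spread. It stood at 9.45, 9.14, 13.5, 7.82, 59.8 and 5.66 CPM in triple samples 1 to 6 and at 2.10 and 1.08 CPM in double samples 1 and 2. The groups did not overlap, and triple sample 5 was 4.43 times the next highest triple sample. Gli1 had a log2 fold change of 3.46 ± 1.12 (SE), with an adjusted p of 0.0909 and an exact permutation p of 0.0357. Without triple sample 5 the triple mean was 9.12 ± 2.87 CPM (SD, n = 5), and the log2 fold change of 2.52 then passed the test (adjusted p = 0.0371). Gli1 overlaps Arhgap9, named here for its position, on the opposite strand, and the use of strand in counting is not given in the sources used here. Arhgap9 had 491 to 765 counts in the triple samples and 148 and 456 counts in the double samples, with 765 Arhgap9 counts beside 1888 Gli1 counts in triple sample 5.

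Gli3 (chromosome 13, 15463235 to 15730026) stood at 79.5, 46.8, 35.9, 71.8, 57.4 and 81.2 CPM in triple samples 1 to 6 and at 23.6 and 33.4 CPM in double samples 1 and 2. The groups lay close together without overlap. Gli3 had a log2 fold change of 1.12 ± 0.35 (SE), with an adjusted p of 0.0815. Triple sample 5 did not lead for Gli3, which was the only tested member besides Hhip for which another triple sample was higher.

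**Figure D3:**
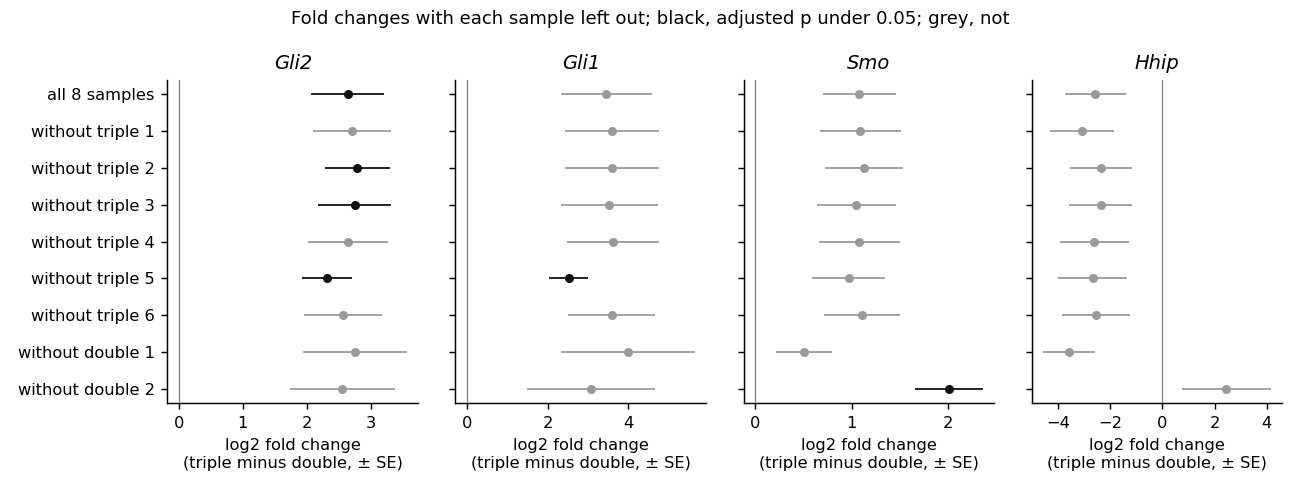
Log2 fold changes (triple minus double, points with SE bars) of Gli2, Gli1, Smo and Hhip from all 8 samples and with each sample left out; black points passed the adjusted test. Gli2 stays between 2.32 and 2.79, Gli1 passes only without triple sample 5, and Hhip changes sign without double sample 2.

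Ratios within a sample do not depend on scaling and are given as a description. The log2 ratio of Ptch1 to Gli2 averaged -0.42 ± 0.46 in the triple samples (SD, n = 6) and was 2.35 and 1.97 in double samples 1 and 2. In the triple samples Ptch1 reads were thus close to or below Gli2 reads, and in both double samples they were well above, with no overlap. The log2 ratio of Gli2 to Gli3 was -1.31, -1.32, -0.56, -0.86, 0.47 and -0.92 in triple samples 1 to 6 and -1.79 and -2.52 in double samples 1 and 2. Gli2 reads exceeded Gli3 reads in triple sample 5 only. The log2 ratio of Gli1 to Gli2 ranged from -2.92 to -0.41 in the triple samples and was -1.70 and -2.42 in the double samples, so the groups overlapped. The log2 ratio of Hhip to Gli2 ranged from -7.63 to -4.24 in the triple samples and was -5.82 and 0.46 in the double samples.

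**Figure D4:**
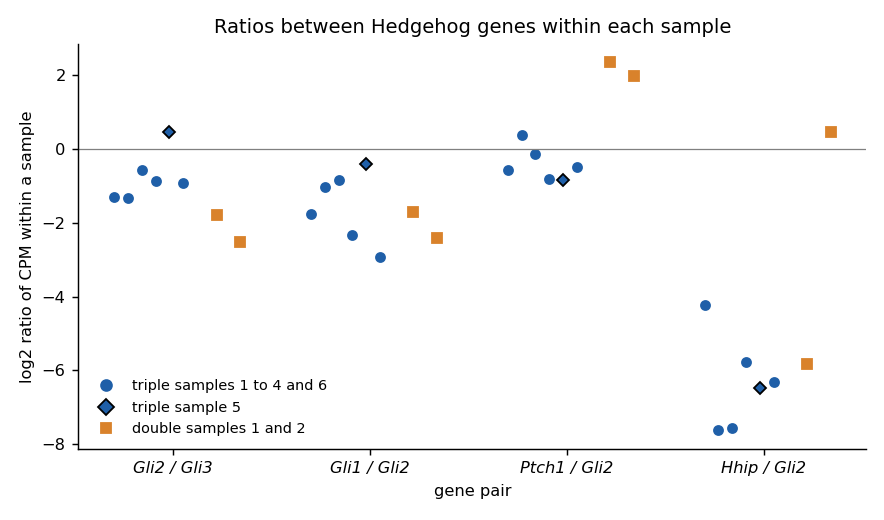
Log2 ratio of CPM between pairs of Hedgehog genes within each sample, with 6 triple samples (blue; sample 5 as a diamond) left of 2 double samples (orange squares). Ptch1 to Gli2 and Gli2 to Gli3 separate the groups, and Gli1 to Gli2 and Hhip to Gli2 do not.

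Per kilobase of exon (union of GENCODE M21 exons), the order of levels in the triple samples began with Smo at 27.5 ± 5.71 CPM per kilobase (SD, n = 6). Gli3 (6.48 ± 1.92), Gli2 (5.75 ± 3.13), Sufu (4.81 ± 0.57) and Gli1 (3.52 ± 4.17 CPM per kilobase) followed, and neighbours among these 4 overlapped across samples. Ptch1 (1.94 ± 0.62) and Dhh (1.06 ± 0.81 CPM per kilobase) came next and also overlapped. Hhip at 0.0746 and Ihh at 0.0443 CPM per kilobase were last, and they overlapped as well. In the double samples (n = 2) Smo was again first, at 13.0 ± 8.63 CPM per kilobase, followed by Sufu at 5.47 ± 3.57, Gli3 at 2.97 ± 0.73, Ptch1 at 2.03 ± 0.61 and Gli2 at 0.92 ± 0.11 CPM per kilobase. Hhip, Gli1, Dhh and Ihh followed there at 0.446 to 0.0325 CPM per kilobase, with Hhip at 0.0134 and 0.878 in double samples 1 and 2. Smo overlapped Sufu, Sufu overlapped Gli3 and Hhip overlapped Gli2 across the double samples. Hhip also overlapped Gli1, Dhh and Ihh there, and Gli1 overlapped Dhh. By group means on this scale, Gli2 had rank 3 in the triple samples and rank 5 in the double samples.

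Other genes reported as Gli targets in some tissue moved in both directions. Of 23 tested from a list of 25, 2 rose, 2 fell and 19 gave no call. Their median log2 fold change was 0.95. Of all genes tested, 2.94% were called higher and 5.41% lower. Osr2, a zinc finger factor of limb and palate mesenchyme, stood at 29.3, 42.6 and 62.0 CPM (lowest, median and highest) in the triple samples and at 4.89 and 3.54 CPM in the double samples. Its log2 fold change was 3.40 ± 0.37 (SE), with an adjusted p of 0.00259, and it kept its call when any 1 sample was left out. Foxf1, a forkhead factor of visceral mesenchyme, stood at 28.6, 34.5 and 41.9 CPM in the triple samples against 3.92 and 13.2 CPM in double samples 1 and 2. It rose by 2.03 ± 0.44 (SE) on the log2 scale (adjusted p = 0.029). Foxf1 lost its call without double sample 1 (adjusted p = 0.051), where its log2 fold change was 1.40, and without triple sample 1, 4, 5 or 6 (adjusted p = 0.052 to 0.0626).

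The reported targets that fell were Spp1 and Myf5. Spp1 (osteopontin, a secreted phosphoprotein of many cell types) averaged 49.8 ± 21.5 CPM in the triple samples (SD, n = 6) and had 584 and 1890 CPM in the double samples, and fell by 4.63 ± 0.51 on the log2 scale (adjusted p = 0.00277). Myf5, a muscle-determining factor that is also in the muscle list below, had 0.0321 to 0.696 CPM in the triple samples, against 44.1 and 32.4 CPM in double samples 1 and 2. Myf5 fell by 6.76 ± 0.83 on the log2 scale (adjusted p = 0.00453). Mycn, a proliferation factor, was named after its values were seen. It stood at 4.11, 6.14 and 13.0 CPM (lowest, median and highest, the last in sample 5) in the triple samples and at 0.566 and 2.63 CPM in the double samples (adjusted p = 0.0936). Over the 71 tested genes of these 5 lists, 12.7% were called, against 8.35% of all genes tested.

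**Figure D5:**
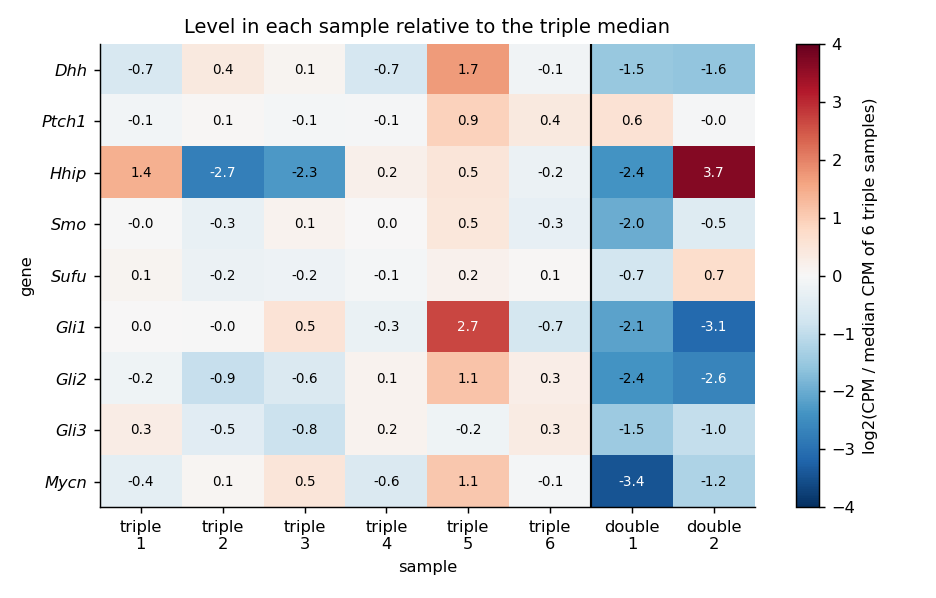
Log2 ratio of CPM in each sample to the median of the 6 triple samples, for 8 Hedgehog members with Mycn; the black line parts triple samples (left) from double samples (right). Triple sample 5 is red for Dhh, Ptch1, Gli1, Gli2 and Mycn, and the double samples are blue for Dhh, Smo, Gli1, Gli2, Gli3 and Mycn.

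Triple sample 5 had the highest level of the 6 triple samples in 6 of 8 tested members, Gli1, Gli2, Ptch1, Smo, Sufu and Dhh, and in 21.3% of all genes tested. It led every other triple sample by at least 1 log2 unit in Gli1 and Dhh among the members, as it did in 1.2% of all genes tested. In log2 CPM with the prior count of 2, none of the tested genes of the 5 other pathway lists showed such a lead. Without the prior count the reported target Nkx2-2 did, at 0.601 CPM in the next highest triple sample and 1.23 CPM in triple sample 5. Markers of Schwann cells, which are a known source of Dhh, had their highest summed level in that sample. Their summed level was 459 CPM in triple sample 5, 111 to 349 CPM in the other triple samples, and 177 and 163 CPM in the double samples. Dhh and this sum did not keep the same order in the other samples. Triple sample 3, at a sum of 349 CPM, had 3.88 CPM of Dhh, and triple sample 2, at 186 CPM, had 4.62 CPM. Sox10 stood at 109 CPM in triple sample 5 and at 19.1 to 53.4 CPM in the other triple samples, and the myelin gene Mbp at 94.0 CPM in triple sample 5 and at 16.6 to 75.5 CPM in the other triple samples. Between the groups 0 of the 7 Schwann markers were called by edgeR, where 8.35% of all genes tested were. At an unadjusted edgeR p under 0.05 there were also 0, against 27.9% of all genes tested. The part of the Schwann markers in the Hedgehog values was not tested.

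Correlations between Gli2 and the targets were computed among the 6 triple samples on log2 CPM, for 6 pairs. Gli2 and Gli1 had Pearson's r of 0.60 (exact permutation p = 0.236) and Spearman's rho of 0.03 (p = 1). Gli2 and Ptch1 had r of 0.81 (exact permutation p = 0.0583, adjusted over the 6 pairs 0.306) and rho of 0.60 (p = 0.242). Gli2 and Hhip had r of 0.66 (exact permutation p = 0.147) and rho of 0.60 (p = 0.242). Gli1 and Ptch1 had r of 0.73 (exact permutation p = 0.153) and rho of -0.03 (p = 1). Gli1 with Hhip and Ptch1 with Hhip had r of 0.15 and 0.22 (exact permutation p = 0.797 and 0.753), and rho of 0.26 and -0.14 (p = 0.658 and 0.803). No pair passed the threshold, and the lowest adjusted p was 0.306 by Pearson's r and 0.726 by Spearman's rho. Without the 2 samples farthest from the median of the first gene, r was -0.97 for Gli2 with Gli1, 0.63 for Gli2 with Ptch1, 0.51 for Gli2 with Hhip, -0.20 for Gli1 with Ptch1, -0.47 for Gli1 with Hhip and -0.74 for Ptch1 with Hhip. Triple sample 5 was left out in each case, and the positive r of Gli2 with Gli1, Gli1 with Ptch1, Gli1 with Hhip and Ptch1 with Hhip turned negative without it.

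The genes whose log2 CPM followed Gli2 most closely over all 8 samples, among 14609 genes with a mean of at least 1 CPM, were Zfp513 (Pearson's r = 0.991), Ctsb (0.986), Phactr1 (0.976), Tmem150c (0.970) and Srsf4 (0.968). These r values are descriptions of 8 samples in which Gli2 itself differs between the groups. Phactr1, a regulator of actin and protein phosphatase, stood at 12.8 to 31.4 CPM in the triple samples and at 4.85 and 4.26 CPM in the double samples. Zfp513 moved over a far narrower range, at 28.8 to 33.6 CPM in the triple samples and 25.9 and 26.3 CPM in the double samples. Those closest to Gli1 were Psd (r = 0.973), Amn (0.965), Slc22a15 (0.964), Smarcc2 (0.958) and Trim62 (0.952). Psd stood at 15.9 CPM in triple sample 5, at 1.59 to 4.43 CPM in the other triple samples and at 0.647 and 0.613 CPM in the double samples.

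Some markers of other cell types also differed between the groups, and their part in the Hedgehog values was not tested. Of all genes tested, 2.94% were called higher and 5.41% lower. Among 11 tested fibroblast markers Pdgfra and Cd34 rose and 0 fell. The summed fibroblast list stood at 20400 to 45700 CPM in the triple samples and at 11800 and 14400 CPM in double samples 1 and 2. The collagen genes Col1a1, Col1a2 and Col3a1 dominated that sum, and the groups overlapped for Col1a1 and Col1a2. Of the 11 tested markers 9 had a positive log2 fold change. The exceptions, Pdgfrb and Thy1, averaged 128 and 108 CPM in the triple samples and 181 and 111 CPM in the double samples. The fibroblast factor Tcf21 was at 0 in every sample but triple sample 2. Pdgfra stood at 136 to 376 CPM in the triple samples and at 86.0 and 64.1 CPM in the double samples. Of 17 embryonic and precursor muscle markers 15 fell and 0 rose, with a summed level of 57.6 to 1170 CPM in the triple samples and 15800 and 3540 CPM in double samples 1 and 2. The summed adult muscle list was 141 to 13200 CPM in the triple samples, 76100 CPM in double sample 1 and 2960 CPM in double sample 2, with Myh7 called lower among its 13 genes. Among 10 leukocyte markers Cd68 and Itgam rose and 0 fell, with summed levels of 1740 to 2620 CPM in the triple samples and 805 and 1790 CPM in the double samples. Of 8 endothelial and 8 smooth muscle markers 1 each fell, Tek and Actg2. The endothelial list summed to 184 to 479 CPM in the triple samples against 429 and 320 CPM in the double samples, and the smooth muscle list to 457 to 1860 CPM against 9640 and 2520 CPM. Epcam rose among the 4 of 8 epithelial markers that were tested, while the lung epithelial genes Sftpc and Sftpb, not tested, had at most 1 count in any sample. The epithelial list summed to 4.73 to 38.6 CPM in the triple samples and to 5.7 and 8.44 CPM in the double samples. Of 11 tested mesothelial markers edgeR called 0, and 2 were higher at an unadjusted p under 0.05 (11.8% of all genes tested), with summed levels of 138 to 1120 CPM in the triple samples and 349 and 1430 CPM in the double samples.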

How the data were processed

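Each sample had 1 table of raw read counts per gene, deposited by the authors with gene coordinates. HTSeq, DESeq2, mm10 and GRCm38 are listed in the submitters' processing notes without a role. The sources used here do not give the aligner, annotation release or strand setting. Symbols were matched for 52403 of 52636 genes, and coordinates with strand matched GENCODE M21 for 49956 once starts were counted from 1. Groups came from the genotype label. Replicate numbers follow accession order and pair no samples. Counts were filtered (filterByExpr), scaled by TMM and tested, triple minus double in a fit to all 8 samples, with edgeR 4.0.16 (quasi-likelihood test; R 4.3.3). Adjusted p-values are Benjamini-Hochberg over 17709 genes. Standard errors were derived from the test statistic. Log2 CPM used a prior count of 2. Floors cover counting error only. The procedure was tested on simulated data. Alternatives were DESeq2 1.42.0, limma-voom (limma 3.58.1), other scalings and filters, a fit with the labels' description code, and omission of each sample. Members, lists and tests were chosen with earlier results of these data known. Named genes are the members, up to 6 called genes of each list (up to 2 of smallest p where none was called), the 5 genes closest to Gli2 and to Gli1, the tested neighbours of Gli1, Gli2, Ptch1 and Hhip, and the 3 deleted genes. Shh, Boc, Gas1, Mycn, Nkx2-2, Arhgap9, Hsd11b1, Mks1 and the marker genes named singly fall outside that rule and were chosen after their values were seen. Promoters are RefSeq's, and protein sequences were not used here. Some genes of the lists are not reported here and were left out of the list counts.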

Additional observations from a re-analysis of the deposited data

Results flagged for a closer look

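Triple sample 5 lay far from the other 5 triple samples in 2 of the 26 sets of triple values examined for a sample that stands apart (Dixon's gap criterion, which chance meets in about 1 in 20 sets). Gli1 stood at 59.8 CPM there, against 13.5 CPM in the nearest triple sample, a gap that made up 0.855 of the range. Dhh stood at 11.7 CPM, against 4.62 CPM in the nearest triple sample, a gap of 0.75 of the range.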

How the results depend on the processing

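With DESeq2, 5 members were called higher, against 1 with edgeR, and 19.2% of all genes were called, against 8.35%. The log2 fold changes of Gli1 (3.41), Gli3 (1.09), Smo (1.06) and Dhh (1.89) then passed the test. DESeq2 also called 5 genes between Smo and Gli higher and 2 lower, 1 cilium gene higher and 1 lower, and 5 other targets higher and 4 lower. With limma-voom 0 members were called and Gli2 stood at 2.49 (adjusted p = 0.0762). Ptch1 turned to 0.02 with upper-quartile scaling. With library size alone its difference in mean log2 CPM turned to 0.14 and that of Sufu to 0.20. Leaving out each sample in turn gave 0 to 2 members called higher, and log2 fold changes of 2.52 to 3.99 for Gli1, 2.32 to 2.79 for Gli2, 0.51 to 2.01 for Smo, -0.33 to 0.27 for Ptch1, -0.74 to 0.72 for Sufu and -3.57 to 2.45 for Hhip. Disp2 ranged from -2.81 to 0.61, with the sign turned without double replicate 2. In the lists, these fits called 0 to 1 ligand release genes higher, 0 to 1 co-receptors lower, 0 to 8 genes between Smo and Gli higher and 0 to 4 lower, 0 to 3 cilium genes higher and 0 to 1 lower, and 1 to 6 other targets higher and 2 to 4 lower. Among the triple samples, r stayed positive for Gli2 with Ptch1 (0.36 to 0.91) and Gli2 with Hhip (0.44 to 0.92). It ranged from -0.68 to 0.78 for Gli2 with Gli1 and -0.77 to 0.95 for Gli1 with Ptch1. For Gli1 with Hhip it was -0.39 to 0.31 and for Ptch1 with Hhip -0.12 to 0.61. In these last 4 pairs r was lowest without triple replicate 5. The cause of these changes was not tested. Fits without a double sample hold 1 double sample, assumed to vary like the triple samples. Except for the co-receptors, the highest list counts above came from the fit without double replicate 2. Among the fits that left out a sample, that fit also called the largest share of all genes, so these counts are not particular to the lists. No paired analysis was possible because replicate numbers follow accession order. The shared description code as a term cut the genes called from 1478 to 962 and those between Smo and Gli called higher from 3 to 2, without Prkacb (0.95). Reads limit Ihh, Shh and Hhip.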

Other observations

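The nearest tested genes on either side of Gli1, Gli2, Ptch1 and Hhip gave no call, where 8.35% of all genes tested were called. Next to Gli2, Tfcp2l1 (148964 bases away) stood at 0.265 to 7.02 CPM in triple samples, against 2.71 and 0.108 CPM in double samples 1 and 2, and Inhbb (361846 bases away), which encodes an activin and inhibin subunit, at 26.2 to 128 CPM in triple samples, against 63.7 and 65.1 CPM in double samples (adjusted p = 0.918 and 0.963). Next to Gli1, Mars, a transfer RNA synthetase gene, had a log2 fold change of -0.39 ± 0.24 and R3hdm2 of -0.73 ± 0.28 (SE; adjusted p = 0.311 and 0.133). Fancc and Ercc6l2 beside Ptch1 (adjusted p = 0.516 and 0.812) and Anapc10 and Gm5909 beside Hhip (adjusted p = 0.25 and 0.384) gave no call either. In these pairs the groups overlapped in every case. Mycn, Hsd11b1 and Mks1 were the only genes of the 52 with a promoter in the 5 lists to hold the Gli core CCACCCA there. Of all promoters, 9.3% hold that core.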
